A study of Mus musculus with 6 samples.

Results

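TRBV20 is a variable gene of the mouse T cell receptor β chain (Vβ15 in the older naming). The entries described here are the clonotypes that carried it, a clonotype being all reads with the same TRBV gene, the same TRBJ gene and the same amino acids in the CDR3. They are all rows of the 6 deposited receptor tables that name TRBV20 and whose CDR3 holds no stop or frameshift mark. Counted once over the 6 libraries, 5899 of 187625 productive clonotypes were TRBV20 clonotypes. The gene was selected on its read shares and on clones that tumors had in common, as earlier results of these tables showed them, so both are given as a description.

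The β chain of a T cell receptor is made in the thymus by joining a V, a D and a J segment, and bases are trimmed and added at both joints. The CDR3 loop spans these joints and meets the presented peptide, while the V segment alone encodes the CDR1 and CDR2 loops, which mostly touch the MHC molecule. T cells that descend from 1 cell share the same β chain, so reads of a clonotype follow an expanded clone, and a clonotype found in 2 tissues marks either related cells or the same CDR3 made more than once.

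C57BL/6 mice received MO4 cells, a B16F10 melanoma line of C57BL/6 origin that makes ovalbumin on day 0, injected subcutaneously in the left and the right hindlimb at 100000 cells a site. IFN-α-iPSC-pMCs, a cell product whose name the labels do not spell out, were given around the right tumor only, 1000000 cells at a time, on days 5 to 7 and again on days 12 and 13. RNA was taken on day 14. The 6 libraries are the treated tumor, the distant tumor of the other limb, and the spleen, 2 of each, numbered 1 and 2. The series describes 2 mice, and libraries with the same number are called a set here because the labels do not say in words that a number is a mouse. Every set received the cells, and no library of an untreated mouse is used here. The tables list receptor sequences only, so the tissue labels could not be checked against marker genes.

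The libraries held 42320 to 135599 productive reads and 7539 to 92233 clonotypes. TRBV20 supplied 1665 to 4813 of these reads and 280 to 3043 of the clonotypes. Reads carry no molecular identifiers, so all intervals cover counting error only, and more cells of a clone and more receptor RNA per cell cannot be told apart.

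TRBV20 lies on mouse chromosome 6, plus strand, at chr6:41188273-41188977 (GRCm38, GENCODE M21), as the 16th of the 23 TRBV genes of the tables by position, between TRBV19 and TRBV21. It has 2 exons, and the 3′ end of exon 2 enters the CDR3. The last 40 bases of that exon (chr6:41188938-41188977, plus strand) are shown with the 14 bases from the conserved cysteine codon on in capitals. They encode cysteine, glycine, alanine and arginine and end in 2 further bases. Most TRBV20 CDR3s in the tables begin with the first 3 of these residues. The 3 TRBJ segments that the leading clones used are shown whole, with capitals up to the phenylalanine codon that ends the CDR3 (TRBJ1-2 chr6:41534001-41534048, TRBJ2-4 chr6:41543362-41543410, TRBJ2-5 chr6:41543453-41543501, all plus strand).
TRBV20: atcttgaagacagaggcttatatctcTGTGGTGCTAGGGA
TRBJ1-2: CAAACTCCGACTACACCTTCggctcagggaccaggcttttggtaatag
TRBJ2-4: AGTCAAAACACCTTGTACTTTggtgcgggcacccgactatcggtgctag
TRBJ2-5: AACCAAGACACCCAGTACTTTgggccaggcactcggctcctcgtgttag

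Several of the clonotypes described below are printed next with their TRBJ gene, to show what the abundant clones of the tumors and those seen in tumors of both sets look like. A clone number orders the 24 clonotypes named here by their highest read count in a tumor.
Clone 1, TRBJ2-4: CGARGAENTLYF
Clone 2, TRBJ2-5: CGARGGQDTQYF
Clone 3, TRBJ2-5: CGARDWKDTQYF
Clone 5, TRBJ1-3: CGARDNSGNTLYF
Clone 6, TRBJ1-4: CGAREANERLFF
Clone 7, TRBJ2-4: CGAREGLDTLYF
Clone 8, TRBJ1-1: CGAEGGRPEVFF
Clone 10, TRBJ2-5: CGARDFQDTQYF
Clone 13, TRBJ2-4: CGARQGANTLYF
Clone 21, TRBJ2-7: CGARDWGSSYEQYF
Clone 22, TRBJ2-3: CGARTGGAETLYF

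TRBV20 held a larger share of the receptor reads in set 2 than in set 1, in all 3 tissues. In set 1 it took 3.81% of productive reads in the treated tumor (95% Wilson interval 3.68 to 3.94%), 2.03% in the distant tumor (1.93 to 2.13%) and 2.37% in the spleen (2.27 to 2.46%). In set 2 it took 5.53% in the treated tumor (5.34 to 5.72%), 6.91% in the distant tumor (6.67 to 7.15%) and 3.55% in the spleen (3.45 to 3.65%). The treated tumor was above the distant tumor in set 1 and below it in set 2, and distant tumor 1 lay below both spleens. Among TRBV genes it ranked 13th, 16th and 18th in treated tumor, distant tumor and spleen of set 1, and 6th, 4th and 15th in those of set 2.

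The group means were 4.67 ± 1.22% in treated tumors, 4.47 ± 3.45% in distant tumors and 2.96 ± 0.837% in spleens (SD, n = 2 each), so the ranges of treated and distant tumors overlapped. In the fit over all 23 TRBV genes (edgeR's quasi-likelihood test on reads), TRBV20 differed by a log2 ratio of 0.06 ± 0.60 (SE) between treated and distant tumors. Between tumors and spleens the log2 ratio was 0.63 ± 0.54 (SE). In both comparisons 0 of 23 TRBV genes passed an adjusted p of 0.05 (0% called), an unadjusted p under 0.05 was reached by 3 and 4 genes, and 3 genes in each were called by DESeq2, TRBV20 not among them. Counting each clonotype once, the TRBV20 share was 3.63%, 2.50% and 2.53% in treated tumor, distant tumor and spleen of set 1 and 4.27%, 5.42% and 3.30% in those of set 2, the same order of libraries within each set.

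**Figure D1:**
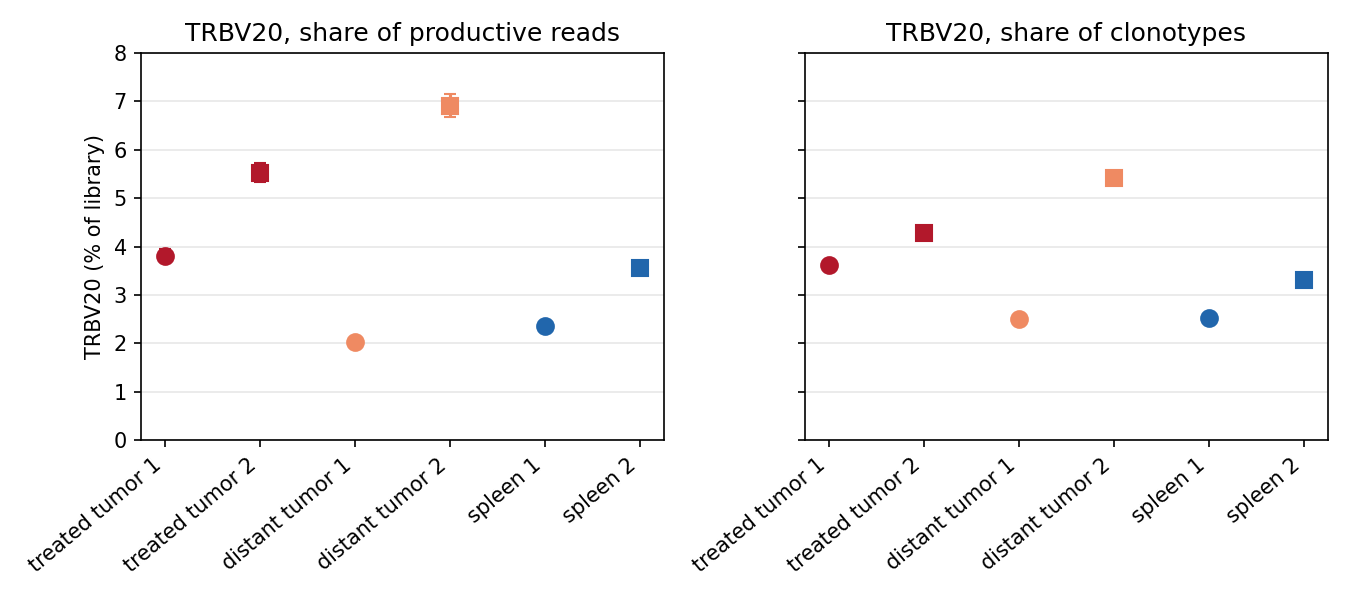
TRBV20 share of each library, in percent of productive reads (left, with 95% Wilson intervals) and in percent of clonotypes (right). Circles are set 1 and squares set 2. By reads the shares run from 2.03% in distant tumor 1 to 6.91% in distant tumor 2, and each square lies above the circle of its tissue in both panels.

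The 3 genes nearest to this pattern, by Pearson's r of log2 read shares over the 6 libraries, were TRBV13-1 (r = 0.795), TRBV5 (r = 0.782) and TRBV3 (r = 0.600). These points share their libraries and depths, so r is a description. TRBV5 held 17.8% and 14.0% of the reads of treated and distant tumor 2 against 9.35% and 8.91% of those of set 1. TRBV13-1 and TRBV3 stayed between 3.45% and 7.55% in every library.

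TRBV20 reads were concentrated in fewer clones in the tumors than in the spleens. The same contrast held for the other TRBV genes, whose medians are given below. The most abundant TRBV20 clonotype took 29.1% and 16.9% of TRBV20 reads in treated and distant tumor 1. In set 2 it took 32.8% of the treated and 23.4% of the distant tumor's TRBV20 reads. In the spleens it took 1.27% and 3.24%. Tumors and spleens did not overlap in this share.

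The 10 most abundant clonotypes together held 58.2%, 41.6%, 80.0% and 65.8% of TRBV20 reads in these tumors, in the same order, and 4.80% and 11.1% in spleens 1 and 2. The tumor mean was 61.4 ± 15.97% (SD, n = 4) and the spleen mean 7.93 ± 4.42% (SD, n = 2), a difference of 53.5 points. At an equal depth of 1665 TRBV20 reads, 282, 280, 197 and 371 clonotypes were expected in the tumors against 1276 and 1288 in the spleens. The exact permutation test, two-sided, gave p = 0.0667 for both measures, the smallest p that 4 against 2 libraries allow, and 0.133 adjusted over the 4 measures tested between tumors and spleens. This test takes the 6 libraries as independent, although the series describes 2 mice that gave both tumors and spleen. At least 50% of TRBV20 reads were reached with 6, 16, 2 and 3 clonotypes of these tumors, against 491 and 715 clonotypes of the spleens.

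**Figure D2:**
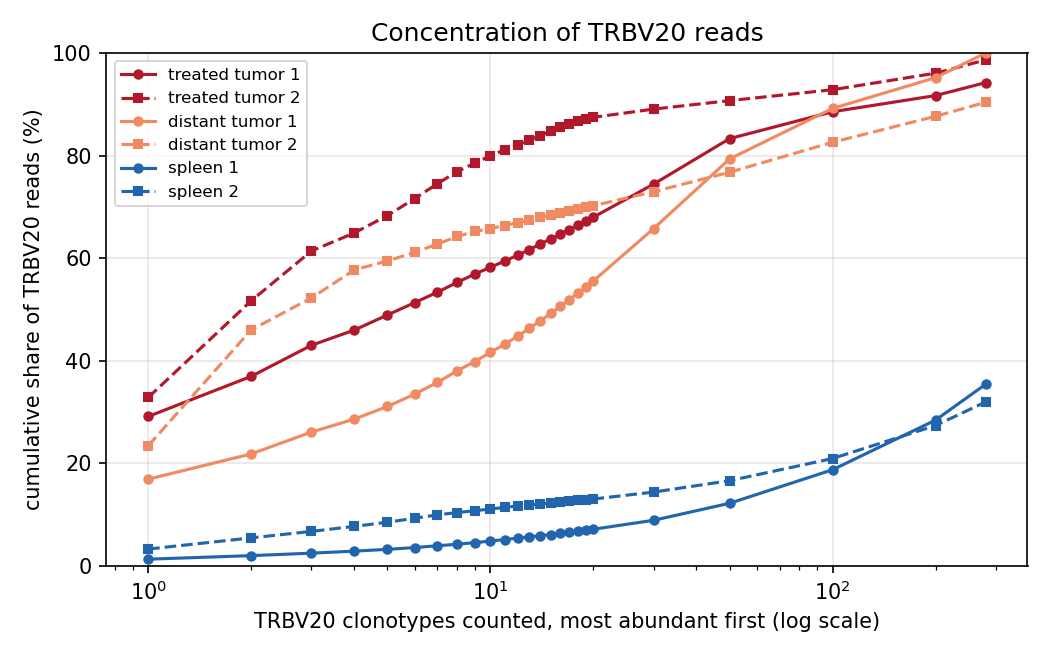
Cumulative share of TRBV20 reads (%) against the number of TRBV20 clonotypes counted from the most abundant on (log scale), 1 line per library. The 4 tumor lines start between 16.9% and 32.8% and the 2 spleen lines between 1.27% and 3.24%.

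Against the other TRBV genes with at least 1665 reads in the same library, TRBV20 was among the least diverse at that depth. Fewest expected clonotypes put it at rank 2 of 17 genes in treated tumor 1, rank 3 of 16 in distant tumor 1, rank 1 of 15 in treated tumor 2 and rank 1 of 10 in distant tumor 2. It had rank 4 of 19 in spleen 1 and rank 1 of 19 in spleen 2. In spleen 2 its 10 leading clonotypes took 11.1% of its reads, where the median of the other genes was 2.69%. In spleen 1 the values were closer, 4.80% against a median of 4.22%. In distant tumor 1 the 10 leading TRBV20 clonotypes took less than the median of the other genes, 41.6% against 47.5%. They took more than it in treated tumor 1, treated tumor 2 and distant tumor 2, where the median was 44.1%, 55.9% and 39.0%. The median of the other genes was thus also far higher in every tumor than in either spleen.

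Of the 20 most abundant clonotypes of spleen 2, 6 carried TRBV20, while the 20 most abundant of spleen 1 held 0. The tumors held 1 (treated 1), 1 (distant 1), 2 (treated 2) and 3 (distant 2) among their top 20.

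The clones that led one tumor of a set were often weak or unseen in the other. Clone 1, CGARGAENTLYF, had 1017 reads in treated tumor 2, which was 1.81% of that library and rank 7 in it, and 0 reads in each of the other 5 libraries. A count of 0 was taken to allow up to 3 reads, or 0.00709% of distant tumor 2, and its observed share in treated tumor 2 was 256-fold above this limit. Clone 6, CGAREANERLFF, showed the same restriction in set 1, with 248 reads in treated tumor 1 (0.298%) and 0 elsewhere, 81.6-fold above the limit of 3 reads in distant tumor 1. Clone 7, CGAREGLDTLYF, had 192 reads in treated tumor 1 and 1 read in distant tumor 1. Clone 9, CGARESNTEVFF on TRBJ1-1, had 109 reads in treated tumor 2 and none in any other library.

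Other clones were present in both tumors of a set. Clone 4, of 13 residues on TRBJ1-2, had 585 reads in treated tumor 2 (18.9% of its TRBV20 reads), 661 in distant tumor 2 (22.6%) and 156 in spleen 2, which made it rank 11, rank 7 and rank 3 of those libraries, and 0 reads in set 1. Clone 3, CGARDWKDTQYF, had 105 reads in treated tumor 2, 684 in distant tumor 2 and 105 in spleen 2, and again 0 in set 1. Its share was 8.63-fold higher in the distant than in the treated tumor. Clone 8, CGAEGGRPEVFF, had 45, 160 and 47 reads in treated tumor 2, distant tumor 2 and spleen 2, with 1 read in distant tumor 1. These 3 clones were seen in all tissues of set 2 and had larger shares in the distant than in the treated tumor. The other 4 named clones that both tumors of set 2 held had larger shares in the treated tumor, by 4.83-fold (clone 5), 11.5-fold (clone 12), 7.87-fold (clone 14) and 2.14-fold (clone 21). Clone 12, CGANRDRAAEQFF on TRBJ2-1, had 91, 6 and 9 reads in treated tumor 2, distant tumor 2 and spleen 2. The named clones of set 2 thus differed in which tumor held the larger share.

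In set 1 the counterpart was clone 2, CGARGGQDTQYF, with 922 reads in treated tumor 1 (1.11%, rank 8) and 281 in distant tumor 1 (0.342%, rank 19). Its share was 3.24-fold higher in the treated tumor. It had 0 reads in spleen 1. Clone 10, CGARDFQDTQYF, which has the same last 6 residues, had 94 reads in treated tumor 1, 71 in distant tumor 1, 7 in spleen 1 and 7 in distant tumor 2. Its shares of 0.113% (95% Wilson interval 0.0924 to 0.138%) and 0.0864% (0.0685 to 0.109%) in the tumors of set 1 had overlapping intervals. Clone 13, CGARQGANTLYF, was 5.54-fold higher in the distant tumor, at 82 against 15 reads.

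**Figure D3:**
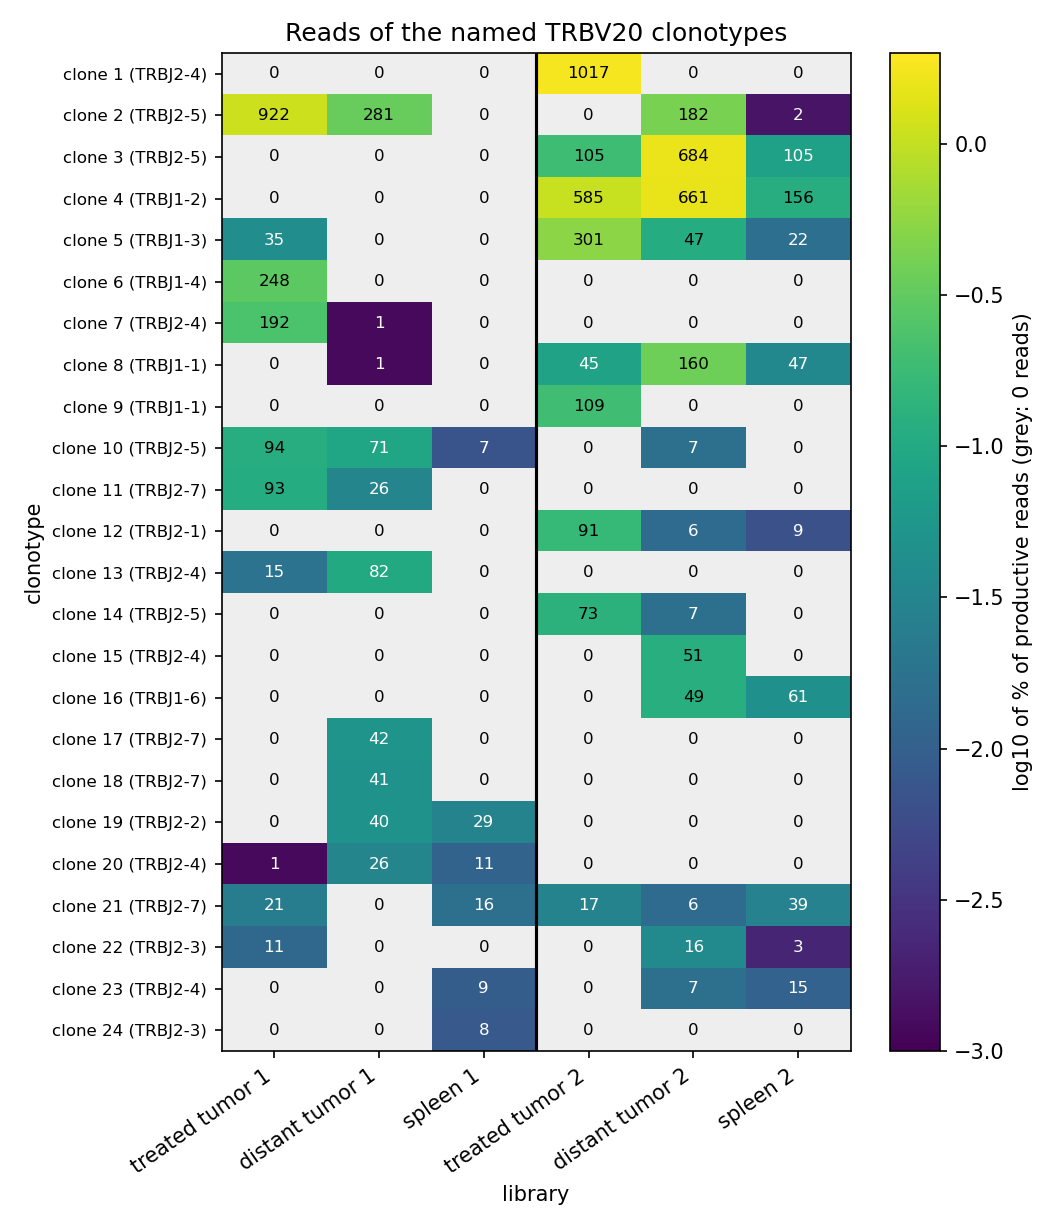
Reads of the 24 named TRBV20 clonotypes (rows, numbered by their highest count in a tumor, with the TRBJ gene) in the 6 libraries (columns, set 1 left of the line and set 2 right of it). Color is log10 of the percent of productive reads and grey is 0 reads. Clone 1 is seen in treated tumor 2 alone, with 1017 reads, and clone 2 in both tumors of set 1, in distant tumor 2 and in spleen 2.

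Of the 89 TRBV20 clonotypes with at least 10 reads in both tumors of set 1 together, treated tumor 1 had the higher share of 43 and distant tumor 1 that of 40 (Fisher's exact test, adjusted over all 2257 clonotypes tested), and 6 did not pass. Over all clonotypes 54.2% were called higher on the treated side and 41.6% on the distant side, so these counts are near the background. The test takes reads as independent molecules, which PCR copies are not, and it compares these libraries and not the conditions. In set 2, 14 of 36 were higher on the treated side and 20 on the distant side, where 48.2% and 45.7% of all 1113 clonotypes were called. Most of these calls were clonotypes seen in 1 of the tumors only, and the minimum of 10 reads fixes such a call in advance. Among the 15 TRBV20 clonotypes tested in set 1 that both tumors held, 6 were higher on the treated side, 3 on the distant side and 6 did not pass, against a background of 45.8% and 27.5%. Among the 11 of set 2, 6 were higher on the treated side, 3 on the distant side and 2 did not pass, against 54.2% and 17.9%.

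The tumors of a set shared 24 TRBV20 clonotypes in set 1 and 39 in set 2. In set 1 the shared clonotypes held 50.4% of the TRBV20 reads of the treated tumor (95% Wilson interval 48.7 to 52.2%) and 37.6% of those of the distant tumor (35.3 to 39.95%). In set 2 they held 44.6% (42.9 to 46.4%) and 57.4% (55.6 to 59.1%). Over all TRBV genes the shared clonotypes held 39.5% and 45.6% of the reads in set 1 and 43.3% and 28.9% in set 2, so the TRBV20 value was above that of all genes in treated tumor 1 and distant tumor 2, below it in distant tumor 1, and close to it in treated tumor 2. By the share of its clonotypes found in both tumors, TRBV20 was at rank 5 of 21 genes with at least 100 reads in each tumor of set 1, with 3.34%, and at rank 2 of 20 in set 2, with 4.62%.

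Many shared entries stood 1 residue from a strongly shared clone. Of the 39 shared in set 2, 25 differed at 1 residue, with the same TRBJ gene and length, from a clonotype that had at least 10 reads in each of the tumors. In set 1 this held for 11 of the 24. After each clonotype was joined to a 10 times more abundant one that differs from it at 1 residue, 13 shared clonotypes were left in set 1 and 11 in set 2.

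Tumors of different sets shared fewer TRBV20 clonotypes, but with some abundant exceptions. The treated tumors of the 2 sets shared 6, treated tumor 1 and distant tumor 2 shared 17, distant tumor 1 and treated tumor 2 shared 4, and the distant tumors shared 12. In the same order, these were 1.30%, 3.67%, 1.43% and 4.29% of the TRBV20 clonotypes of the set 1 tumor. Over all TRBV genes the values were 0.870%, 1.12%, 1.25% and 1.73%. Of the TRBV20 clonotypes of the set 2 tumor they were 1.86%, 3.03%, 1.24% and 2.14%. The values over all genes were 1.47%, 1.38%, 1.86% and 1.87%. Clone 2 was the most abundant TRBV20 clonotype shared between tumors of different sets. It had 182 reads in distant tumor 2 (0.430%, rank 19) and 2 reads in spleen 2, beside its 922 and 281 reads in set 1, and 0 reads in treated tumor 2, which allows up to 0.00535% of that library. Within set 2 its observed share in the distant tumor was 80.4-fold above this limit. Of the 17 clonotypes shared by treated tumor 1 and distant tumor 2, 9 differed at 1 residue from a clonotype with at least 10 reads in both. This also held for 9 of the 12 shared by the distant tumors. After 1-residue variants were joined to their clone, 2, 7, 3 and 3 shared TRBV20 clonotypes were left, in the order above. The percentages above thus partly recount variants of shared clones, and they were not computed with variants joined.

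Clone 5, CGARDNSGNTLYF, had 301 reads in treated tumor 2, 47 in distant tumor 2, 22 in spleen 2 and 35 in treated tumor 1, with 0 in distant tumor 1 and spleen 1. Clone 22, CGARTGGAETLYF, had 11 reads in treated tumor 1, 16 in distant tumor 2 and 3 in spleen 2. Clone 21, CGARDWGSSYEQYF, was the only TRBV20 clonotype of 5 libraries (0.0170% of TRBV20 clonotypes, against 0.0229% over all TRBV genes). It had 21 reads in treated tumor 1, 16 in spleen 1, 17 in treated tumor 2, 6 in distant tumor 2 and 39 in spleen 2, and 0 in distant tumor 1. Its shares lay between 0.0142% and 0.0303% in these 5 libraries, and the 0 reads allow up to 0.00365% of distant tumor 1. The tables give no nucleotide sequences, so the same CDR3 made by separate rearrangements, and a transfer of reads between libraries, could not be told apart from it and were not tested.

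Leading tumor clones were looked up in both spleens. Of the 20 most abundant TRBV20 clonotypes, spleen 2 held 10 of treated tumor 2 and 12 of distant tumor 2, with 390 and 458 reads. Spleen 1 held 2 and 1 of these. In set 1, spleen 1 held 4 of treated tumor 1 and 6 of distant tumor 1, and spleen 2 held 5 and 3 of them. There only distant tumor 1 had more of its clonotypes in the spleen of the same set. Spleen 2 was also the deeper library, with 3043 TRBV20 clonotypes against 1636 in spleen 1. The clonotypes that distant tumor 2 shared with spleen 2 held 72.4% of its TRBV20 reads, against 48.9% over all TRBV genes. In the other tumors the value with the spleen of the same set was lower for TRBV20 than over all genes. It was 40.7% against 42.7% in treated tumor 2, 21.4% against 34.7% in distant tumor 1 and 13.9% against 35.6% in treated tumor 1. With the spleen of the other set, the TRBV20 value was 37.6% in treated tumor 1 and 24.02% in distant tumor 1. Both were higher than with the spleen of the same set, and over all genes the values were 20.8% and 41.3%. Clone 2, which had only 2 reads in spleen 2, alone held 29.1% and 16.9% of the TRBV20 reads of these tumors. In treated tumor 2 (2.35%) and distant tumor 2 (2.87%) the TRBV20 value was lower than with the spleen of the same set. Over all genes it was 16.7% and 17.8% there.

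The spleens shared 159 TRBV20 clonotypes. They were 9.72% of those of spleen 1 and 5.23% of those of spleen 2, against 9.60% and 6.74% over all TRBV genes. A tumor also held 23 of the 159 (14.5%), while a tumor held 137 (3.14%) of the 4361 TRBV20 clonotypes seen in 1 spleen only. The 159 had a mean CDR3 length of 12.7 residues against 13.1 for the others. Residues that neither the TRBV20 nor the TRBJ germline end encodes numbered 2.11 on average in the clonotypes of both spleens and 3.64 in the others, counted in those that begin with CGA. This is a description of lists that the spleens themselves define.

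By reads the TRBJ partners of TRBV20 varied from tumor to tumor. TRBJ2-5 took 38.1% of TRBV20 reads in treated tumor 1, 27.7% in distant tumor 1 and 42.0% in distant tumor 2. It took 7.45% in treated tumor 2, 11.6% in spleen 1 and 13.3% in spleen 2. Clone 2 held 76.4% and 61.0% of the TRBV20-TRBJ2-5 reads of treated and distant tumor 1, and clone 3 held 55.7% of those of distant tumor 2. With each clonotype counted once, TRBJ2-5 still took 24.8%, 17.1% and 31.2% of TRBV20 in these 3 tumors, where it took 11.4%, 8.98% and 10.8% within the other TRBV genes. After 1-residue variants were joined to their clone, these TRBV20 shares were 25.5%, 12.8% and 27.4%. In treated tumor 2 and the spleens, 9.01%, 11.9% and 11.6% of TRBV20 clonotypes used it, each below the share within the other genes.

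TRBJ2-4 took 39.5% of TRBV20 reads in treated tumor 2, of which clone 1 held 83.2%. In the other libraries TRBJ2-4 took 4.86% to 12.9%. TRBJ1-2 took 22.8% and 27.8% in treated and distant tumor 2, where clone 4 held 82.6% and 81.3% of its reads, and 3.12% to 9.79% in the other libraries. In the spleens the corresponding values were 9.90% and 8.68% for TRBJ2-4 and 6.41% and 9.79% for TRBJ1-2.

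In the fit over all 243 TRBV-TRBJ pairs (edgeR's quasi-likelihood test, all 12 TRBV20 pairs tested), 0 TRBV20 pairs passed in either comparison, where 0% of all pairs were called. At an unadjusted p under 0.05 stood 1 TRBV20 pair between treated and distant tumors, TRBJ2-4, with a log2 ratio of 2.15 ± 0.82 (SE, adjusted p = 0.494). Between tumors and spleens 2 pairs did, TRBJ1-5 with a log2 ratio of -2.86 ± 0.99 and TRBJ2-3 with -1.58 ± 0.54 (SE, adjusted p = 0.266 each). DESeq2 called 13 of 200 pairs between tumors and spleens, among them TRBV20-TRBJ2-5 with a log2 ratio of 2.40 ± 0.73 (SE, adjusted p = 0.0212). For that pair edgeR's quasi-likelihood test gave 1.77 ± 0.91 (SE, adjusted p = 0.449), so the call depended on the method. Between treated and distant tumors DESeq2 called 17 of 275 pairs, with 0 of TRBV20.

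Counted once per clonotype, TRBJ2-4 was the only TRBJ gene whose share within TRBV20 exceeded its share within the other TRBV genes in 6 of 6 libraries. It took 12.5%, 13.6% and 9.66% of TRBV20 clonotypes in treated tumor, distant tumor and spleen of set 1 and 30.1%, 9.80% and 9.92% in those of set 2. Within the other TRBV genes it took 7.75%, 6.78%, 9.50%, 7.43%, 9.12% and 9.50%. The mean difference was 5.92 ± 8.65 points (SD, n = 6), and in the spleens it was small. The exact sign-flip permutation test gave p = 0.0312, the smallest it can give, and 0.250 adjusted over the 12 TRBJ genes, so 0 of 12 passed (0% called). With clonotypes of 1 read left out, TRBJ2-4 was higher in 3 of 6 libraries only. With 1-residue variants joined to their clone it was higher in 6 of 6, by 6.00 ± 8.26 points (SD).

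**Figure D4:**
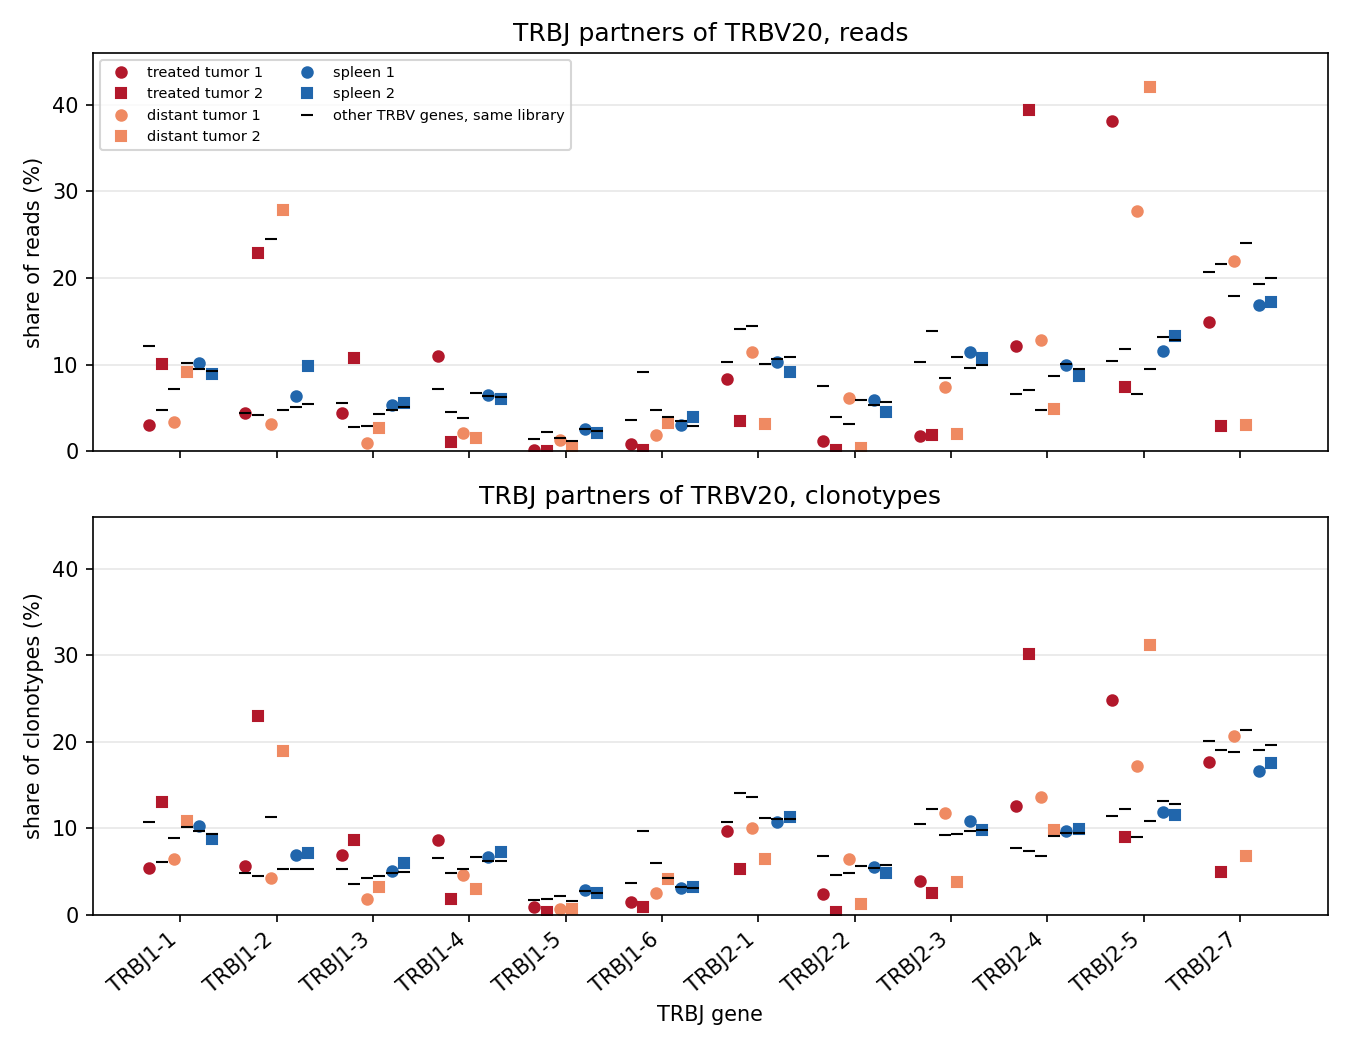
Share of each TRBJ gene (%) within TRBV20 (circles set 1, squares set 2) and within the other TRBV genes of the same library (black dashes), by reads (top) and by clonotypes (bottom). TRBJ2-5 reaches 42.0% of reads in distant tumor 2 and TRBJ2-4 39.5% in treated tumor 2, while the spleen points stay close to their dashes.

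The CDR3s of TRBV20 were shorter than those of other TRBV genes, and more often of 12 residues in tumors than in spleens. The mean length over TRBV20 clonotypes was 12.6, 13.0, 12.6 and 12.8 residues in treated and distant tumor 1 and treated and distant tumor 2. It was 13.1 and 13.0 in spleens 1 and 2. Other TRBV genes averaged 13.9 to 14.1 in every library. The tumor mean was 12.7 ± 0.202 (SD, n = 4) and the spleen mean 13.1 ± 0.0434 (SD, n = 2), a difference of -0.351 residues (exact permutation test, two-sided, p = 0.133, adjusted p = 0.178 over the 4 measures). The other TRBV genes differed by 0.0819 residues the other way. Without clonotypes of 1 read the TRBV20 difference was -0.160 residues (exact permutation p = 0.533).

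CDR3s of 12 residues made up 50.3%, 33.2%, 48.1% and 39.6% of TRBV20 clonotypes in the tumors, in the same order, and 20.7% and 22.2% in the spleens. By reads they made up 66.8%, 42.4%, 53.7% and 48.3% in those tumors, against 20.99% and 25.2% in both spleens. Tumors and spleens did not overlap in either count. Of the 24 named clonotypes, 12 have this length. In the other TRBV genes 12 residues made up 8.74% to 12.1% of clonotypes in every library.

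**Figure D5:**
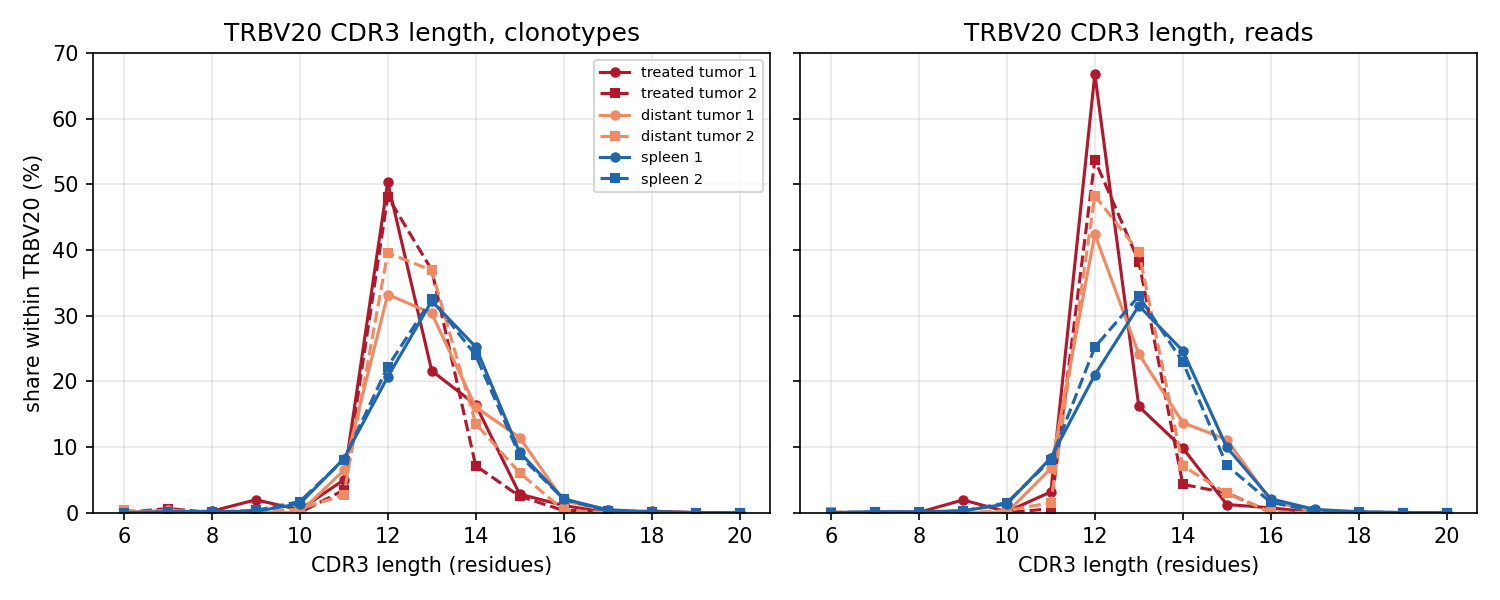
CDR3 length of TRBV20 clonotypes, as share of clonotypes (left) and of reads (right), per library. The tumor lines peak at 12 residues, with 33.2% to 50.3% of clonotypes, and the spleen lines at 13 residues.

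Most tumor entries of the TRBV20-TRBJ2-5 pair were of 1 length. CDR3s of 12 residues held 95.4% and 90.7% of its reads in treated and distant tumor 1. In set 2 they held 87.0% on the treated and 85.7% on the distant side. In the spleens they held 28.6% and 43.6%. By clonotypes they made up 73.7% to 82.8% of the pair in the tumors, against 25.1% in spleen 1 and 29.5% in spleen 2. These tumor clonotypes numbered 95, 39, 24 and 129, in the same order, and only 2, 4, 2 and 2 had at least 10 reads. Of them, 29 in treated tumor 1 were variants of clone 2 and 31 in distant tumor 2 variants of clone 3. The share by clonotypes thus partly recounts these clones, and it was not computed with variants joined. Among reads of the other TRBV genes that used TRBJ2-5, 12 residues made up 6.16% to 17.2% in the 6 libraries. Clones 2, 3 and 10 and clone 14 (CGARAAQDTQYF, 73 reads in treated tumor 2 and 7 in distant tumor 2) all belong here, and 3 of these 4 end in the residues of the TRBJ2-5 segment from its glutamine on. This length was singled out after its values were seen.

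Most TRBV20 CDR3s began with the germline residues cysteine, glycine and alanine. By reads this start held 92.5% to 95.0% in the tumors and 90.9% to 91.6% in the spleens. By clonotypes it held 57.1% to 68.4% in the tumors and 86.9% to 89.4% in the spleens. The entries without it were nearly all of few reads, with a highest count of 9, 3, 5 and 15 reads in treated and distant tumor 1 and treated and distant tumor 2. In the tumors 50.3% to 62.7% of them differed at 1 or 2 residues from an entry with that start, the same TRBJ gene and the same length. In spleens 1 and 2 this held for 33.5% and 46.75%.

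Entries near an abundant clone also made up much of the tumor lists. Those that differed at 1 residue from a clonotype at least 10 times more abundant were 24.4% to 36.0% of TRBV20 clonotypes in the tumors, against 0.550% in spleen 1 and 2.17% in spleen 2. Around the 16 pairs of library and clonotype with at least 100 reads they held 4.17 to 11.5 reads for every 100 of the clone, with a median of 7.74. Around clone 2 in treated tumor 1, 29 such entries held 70 reads in all. The TRBJ2-5 and TRBJ2-4 shares above, and the lengths and clonotype counts under the processing alternatives, are also given with these entries joined to the clone.

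The net charge of the CDR3 middle, counted as lysine and arginine minus aspartate and glutamate after leaving out the first 4 and last 6 residues, did not separate the tissues. The 4 tumors had means of -0.248 (treated 1), -0.176 (distant 1), -0.00313 (treated 2) and -0.138 (distant 2), while spleens 1 and 2 had -0.222 and -0.181. The spleens lay within the range of the tumors. The difference was 0.06 (exact permutation test, two-sided, p = 0.533, adjusted p = 0.533).

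Arginine, the germline residue at position 4, stood in 50.5% to 74.5% of the tumor clonotypes that begin with cysteine, glycine and alanine and in 66.2% and 65.5% of those of the spleens. By reads it stood in 87.8% in treated tumor 1, where clones 2, 6 and 7 carry it, and in 56.3% in distant tumor 2, where clone 4 has threonine there. Among the 24 named clonotypes 19 carry it. They hold 1 to 5 residues that neither germline end encodes, with a median of 3.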

How the data were processed

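Per the labels' protocols, RNA was reverse transcribed, its copy was joined to an adaptor at the 5′ end, the β chain was amplified with constant-region primers, and libraries were sequenced on a MiSeq (300 bp paired-end). No aligner or caller of V and J genes is named (not given in the sources used here). The deposited tables list reads (raw counts) for each TRBV, TRBJ and CDR3 amino acid sequence, and a percent of productive reads that the authors rounded to 2 decimals, which differed by at most 0.00499 points from shares recomputed here. Sequences with a stop or frameshift mark were left out.

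The members and lists were chosen with earlier results of these data known. Named clonotypes are the 5 most abundant of each library, those at 0.1% or more of a tumor and in both tumors of its number, those in 5 or more libraries, and those with 10 or more reads in tumors of both numbers. Count tables were fitted with edgeR 4.0.16 (3 groups, library size the productive reads, filterByExpr, Benjamini-Hochberg), with DESeq2 1.42.0 as an alternative. The edgeR and Fisher steps were tested on simulated data. Other tests were exact permutation tests and Fisher's exact test (scipy 1.17.1). Germline-encoded residues were matched inward from both ends of each CDR3. Germline sequence came from GENCODE M21. P-values of the edgeR, DESeq2 and permutation tests measure only the spread between these libraries, and those of Fisher's test only the counting of reads.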

Additional observations from a re-analysis of the deposited data

Results flagged for a closer look

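TRBV20 sequences with a stop or frameshift mark in the CDR3, which no comparison above uses, were present in every library above the level that a count of 0 allows. They made up 4.92% of TRBV20 reads in treated tumor 1, 3.20% in distant tumor 1 and 4.94% in spleen 1. In treated tumor 2 they made up 2.08%, in distant tumor 2 3.43% and in spleen 2 5.09%. Both spleens lay above all 4 tumors, but spleen 1 (119 marked reads) and treated tumor 1 (164 marked reads) were nearly equal. Among the other TRBV genes the order was the same, with 4.50% to 5.27% in the tumors and 6.35% and 6.67% in spleens 1 and 2. The marked TRBV20 reads were spread over 40 to 221 sequences per library, with a highest count of 34 reads in treated tumor 1 and 4 to 12 reads in the other libraries.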

How the results depend on the processing

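The log2 ratio of the TRBV20 share between treated and distant tumors was near 0 and had no stable sign. It was 0.06 with edgeR, -0.22 with DESeq2, -0.0887 with TMM scaling, -0.00474 with clonotypes counted once and -0.00393 with the 10 leading clonotypes of every library left out. Leaving out 1 library in turn gave -0.57 (without distant tumor 1) to 1.20 (without distant tumor 2), and in no fit did TRBV20 pass. Between tumors and spleens it kept its sign and did not pass, at 0.06 (without distant tumor 2) to 0.95 (without spleen 2). With the replicate block these ratios were 0.25 and 0.54 and 0 pairs of TRBV20 and TRBJ passed. Deviations of libraries of the same number from their group means correlated across 22 TRBV genes by 0.319 (treated and distant tumor), 0.180 (treated tumor and spleen) and 0.0595 (distant tumor and spleen), so the number was not used as a pairing in the main fit. This check uses gene shares only. Tumors shared 24 and 39 TRBV20 clonotypes within sets 1 and 2, against 4 to 17 between sets.

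TRBV20-TRBJ pairs called between tumors and spleens numbered 1 with DESeq2 and 0 in the other fits. No TRBJ gene passed under any alternative, and with 1 library left out the smallest p was 0.0625. The length difference kept its sign in all alternatives, from -0.437 to -0.297 with 1 library left out. It was -0.160 without clonotypes of 1 read, -0.273 with variants merged and -0.444 weighted by reads. The charge difference stayed between 0.01 and 0.10. Expected clonotypes and top 10 shares kept their direction, at -1029 to -971.4 clonotypes and 47.3 to 60.1 points with 1 library left out, -1064 clonotypes and 57.6 points with variants merged, and -401.8 clonotypes and 53.6 points without clonotypes of 1 read. No permutation test between tumors and spleens passed, since 4 against 2 libraries cannot reach 0.05.

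At the minimum of 10 reads the call of a clonotype seen in 1 tumor only was fixed in advance. Those that both tumors held are given above on their own. With these fixed calls included, Fisher's exact test called 83 of 89 TRBV20 clonotypes in set 1 and 34 of 36 in set 2. With a minimum of 50 reads it called 10 of 12 (8 higher on the treated and 2 on the distant side) and 12 of 13 (7 and 5), where 93.1% and 92.7% of all clonotypes were called. With a minimum of 5 reads it called 62 of 78 in set 2 (17 and 45), against 92.5% of all, and 105 of 116 in set 1 (50 and 55), against 92.8%. The balance of the directions thus moved with the minimum. The shares of TRBV20 reads in clonotypes of both tumors moved beyond counting error in distant tumor 1, to 40.04% without clonotypes of 1 read and 40% with variants merged, in distant tumor 2, to 64.8% and 60.3%, and in treated tumor 1 with variants merged, to 52.5%. The merging of variants for lengths, charge, TRBJ shares and clonotypes counted once was chosen after seeing the data. Rare clones are limited by depth, since 1 read was 0.000737% to 0.00236% of a library.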
